A study of Homo sapiens with 24 samples.

Results

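The genes described here are the MHC class II genes HLA-DRA, HLA-DRB1, HLA-DPA1, HLA-DPB1, HLA-DMA and HLA-DMB, the invariant chain gene CD74, and CIITA. They were chosen by symbol, as the rows of the table of read counts that carry these names, and they are 8 of the 23354 genes in it. The choice was made with earlier results of these data known, so they are not a set picked blind to the data. RNA was sequenced from the lines MV4-11 and KG-1a, derived from acute myeloid leukemia (AML) and both of wild-type genotype per the labels. The cells were left untreated or were treated with 1 μM 8-chloro-adenosine (8CA) or 1 μM 8-amino-adenosine (8AA), adenosine analogs that differ in the group carried at position 8 of the base, and were taken after 8 h or 24 h. Line, treatment and time make 12 groups of 2 libraries, A and B, 24 in all. Nothing in the labels says that A and B came from separate cultures, so the p-values measure the spread between these libraries, which may be technical.

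MHC class II molecules are pairs of an alpha and a beta chain that show peptides from endocytosed proteins to CD4+ T cells. CD74, the invariant chain, fills the peptide groove of the newly made pair, and HLA-DM, a dimer of HLA-DMA and HLA-DMB, later exchanges the last fragment of CD74 for a peptide. CIITA, the class II transactivator, does not bind DNA itself: it is recruited by the RFX complex, CREB and NF-Y, which sit on the X1, X2 and Y boxes of these promoters, and its level is known to set whether the genes are transcribed. Class II is usual on B cells, dendritic cells and monocytes and is found on many, though not all, myeloid leukemias.

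These promoters are shown because class II genes are known to share control through such boxes. In the forms searched below, no printed window holds the X2 core, and those of HLA-DMB and HLA-DPA1 hold no Y core. RefSeq promoters of build GRCh38.p14 were at hand for 6 of the 8 genes, without HLA-DRA and CIITA, and those of 5 are printed, HLA-DPB1 being left out because neither X1 form was found in its window. HLA-DQB1, the beta chain of HLA-DQ, is added from the wider pathway list. The window of 66 bases is written 5′ to 3′ on the strand of the gene, and all of it lies upstream of the annotated start. Capitals mark the X1 box match near the 5′ end of the window and, where there is one, the Y box core or its reverse complement. HLA-DQB1 has another match to the first X1 form nearer its 3′ end, which is left in lower case.
CD74, chr5:150412935-150413000, minus strand: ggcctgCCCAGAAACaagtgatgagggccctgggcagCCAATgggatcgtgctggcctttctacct
HLA-DRB1, chr6:32589871-32589936, minus strand: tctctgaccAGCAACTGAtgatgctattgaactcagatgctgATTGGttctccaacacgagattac
HLA-DQB1, chr6:32666722-32666787, minus strand: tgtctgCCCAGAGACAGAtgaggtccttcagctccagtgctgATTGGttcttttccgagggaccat
HLA-DMB, chr6:32941060-32941125, minus strand: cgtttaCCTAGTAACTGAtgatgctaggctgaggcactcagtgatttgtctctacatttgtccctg
HLA-DMA, chr6:32953154-32953219, minus strand: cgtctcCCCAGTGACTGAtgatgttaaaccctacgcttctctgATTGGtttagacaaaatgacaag
HLA-DPA1, chr6:33073692-33073757, minus strand: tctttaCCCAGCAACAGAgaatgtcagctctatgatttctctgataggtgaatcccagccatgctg

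The X1 box was searched as CCNAGNNAC and, by a choice made after the sequences were seen, as AGNNACNGA, which overlaps it. The Y box was searched as ATTGG and the X2 box as CGTCA, all on both strands. The search covered the 250 bases upstream of the start in each of 35116 promoters, not the printed windows alone. Of these promoters 13.7% held the first X1 form, 12.3% the second, 21.2% the X2 core and 32.0% the Y core. An X1 form followed by ATTGG on the same strand after 20 to 45 bases was rarer, in 0.308% of promoters (108) for the first form and 0.276% (97) for the second. The first set of 108 held HLA-DMA, HLA-DQB1 and HLA-DOA, and the second held these and HLA-DQA1, HLA-DRB1 and HLA-DRB5. A match of letters is a description of the window and not a measured site.

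The deposited positions place the 6 HLA genes on chromosome 6, CD74 on chromosome 5 and CIITA on chromosome 16. They are on another build than GRCh38, since the starts of 495 of 21956 matched genes lay within 100 bases of the GRCh38 start. In the table's own coordinates HLA-DRA spans 6:32407619-32412826 on the plus strand, CD74 5:149781200-149792499 on the minus strand and CIITA 16:10971055-11018840 on the plus strand. The span of HLA-DRB1 overlaps those of HLA-DRB5 and HLA-DRB6, and HLA-DPA1 and HLA-DPB1 overlap on opposite strands. Neither strand use nor the treatment of paralogs was stated in the sources used here, so reads of these overlapping genes may have been split or shared, and their values are uncertain in that respect.

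Total counts per library lay between 18633963 and 24520078. The quasi-likelihood test of edgeR covered 12800 genes in MV4-11, among them all 8 of these genes, and 12711 in KG-1a, among them only HLA-DMB. HLA-DPB1 passed the filter on low counts in MV4-11 through its 8AA libraries at 24 h alone, the group where it is highest, so it is left out of the counts and medians over the genes below and its own values are a description. Levels are given in CPM, a gene's share of the normalized library total, scaled as usual for RNA-seq. The 7 AML markers differed in level in MV4-11. Over its 12 libraries CD33 was at 101.9 to 134.9, FLT3 at 414.8 to 595.8 and MEIS1 at 82.92 to 99.7 CPM. MPO (7.685 to 12.6 CPM), HOXA9 (6.872 to 9.015) and KIT (2.484 to 6.296) were lower there, and CD34 had at most 4 counts. In KG-1a CD34, a progenitor marker, lay between 339.7 and 656.4 CPM, CD33 between 0.364 and 1.06 CPM, and CD3D, a T cell receptor subunit, between 181.3 and 272.8 CPM. HOXA9 was at 23.19 to 28.88 and KIT at 3.535 to 7.477 CPM in KG-1a. MPO and FLT3 reached at most 2.254 and 1.379 CPM there, and MEIS1 had 0 counts. That the KG-1a libraries carry a T cell gene at this level is a measured fact about the line as deposited, and its part in the results below was not tested.

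In KG-1a the genes described here, other than HLA-DMB, were at or near 0 counts in every condition. Over its 12 libraries, with 248612737 counts in all, CD74 and HLA-DPA1 had 0 counts and HLA-DRA, HLA-DRB1 and HLA-DPB1 had 1 count each. CIITA had 21 counts, between 0 and 5 in a library, and HLA-DMA had 59, between 1 and 9. HLA-DMB was the most counted, with 122 counts and between 1 and 20 in a library. In MV4-11 the lowest library held 4261 counts of CD74, 202 of HLA-DRA, 144 of HLA-DRB1, 129 of HLA-DMA and 97 of CIITA, so the lines did not overlap for these genes.

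Between untreated cells of the 2 lines, 6 of the 7 genes other than HLA-DPB1 were called higher in MV4-11 at 8 h and again 6 of 7 at 24 h (the edgeR quasi-likelihood test on both lines, Benjamini-Hochberg adjusted, adjusted p below 0.05), where 40.1% and 41.0% of 14055 genes were called higher. Those 6 did not pass the filter in KG-1a and entered this fit through MV4-11, where they are high. Their calls are therefore a description. Where KG-1a had 0 counts in both libraries, a floor of 3 counts over the group gives an approximate lower bound, which takes the MV4-11 count as exact. For HLA-DPB1 that count was only 7 at 8 h and 6 at 24 h, so its bound is the least sure. At 8 h CD74 was at least 2963-fold higher in MV4-11, HLA-DRA at least 174.6-fold, HLA-DRB1 at least 112.5-fold, HLA-DPA1 at least 15.8-fold and HLA-DPB1 at least 2.31-fold. These bounds are set by the depth of KG-1a and the level in MV4-11, and say nothing of the true ratio above them. CIITA, with 5 counts in untreated KG-1a at 8 h, was 48.5-fold higher in MV4-11 (95% counting interval, 20.5 to 150.7), and HLA-DMA, with 7 counts, was 38.0-fold higher (18.2 to 95.5). At 24 h the bounds were 2804-fold for CD74, 132.2-fold for HLA-DRA, 17.0-fold for HLA-DPA1 and 1.88-fold for HLA-DPB1. At that time CIITA and HLA-DRB1 had 1 count each in untreated KG-1a, which gives ratios of 313.7 (55.9 to 12430) and 294.8 (52.5 to 11680), and HLA-DMA had 4, at a ratio of 66.2 (25.6 to 244.6). The fitted log2 differences rested on single KG-1a libraries while the calls were kept. For CIITA the difference was 5.53 at 8 h, 6.84 without KG-1a untreated A and 4.79 without B, and 7.99 at 24 h, 7.09 without A and 10.4 without B. At 24 h it was 5.97 for HLA-DMA, 6.84 without A and 5.46 without B, and 7.90 for HLA-DRB1, 6.997 without A and 10.3 without B. HLA-DMB was the exception, at a ratio of 1.98 (0.885 to 4.74) at 8 h and 0.797 (0.323 to 1.93) at 24 h, and was not called. The fitted difference of HLA-DPB1 was also past the threshold, and was no longer so when the KG-1a library A or B of either time was left out (adjusted p = 0.0723 and 0.087 at 8 h, 0.117 and 0.106 at 24 h), or MV4-11 untreated B at 8 h (0.0637). Without MV4-11 untreated B at 24 h no count of HLA-DPB1 was left in either line.

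**Figure D1:**
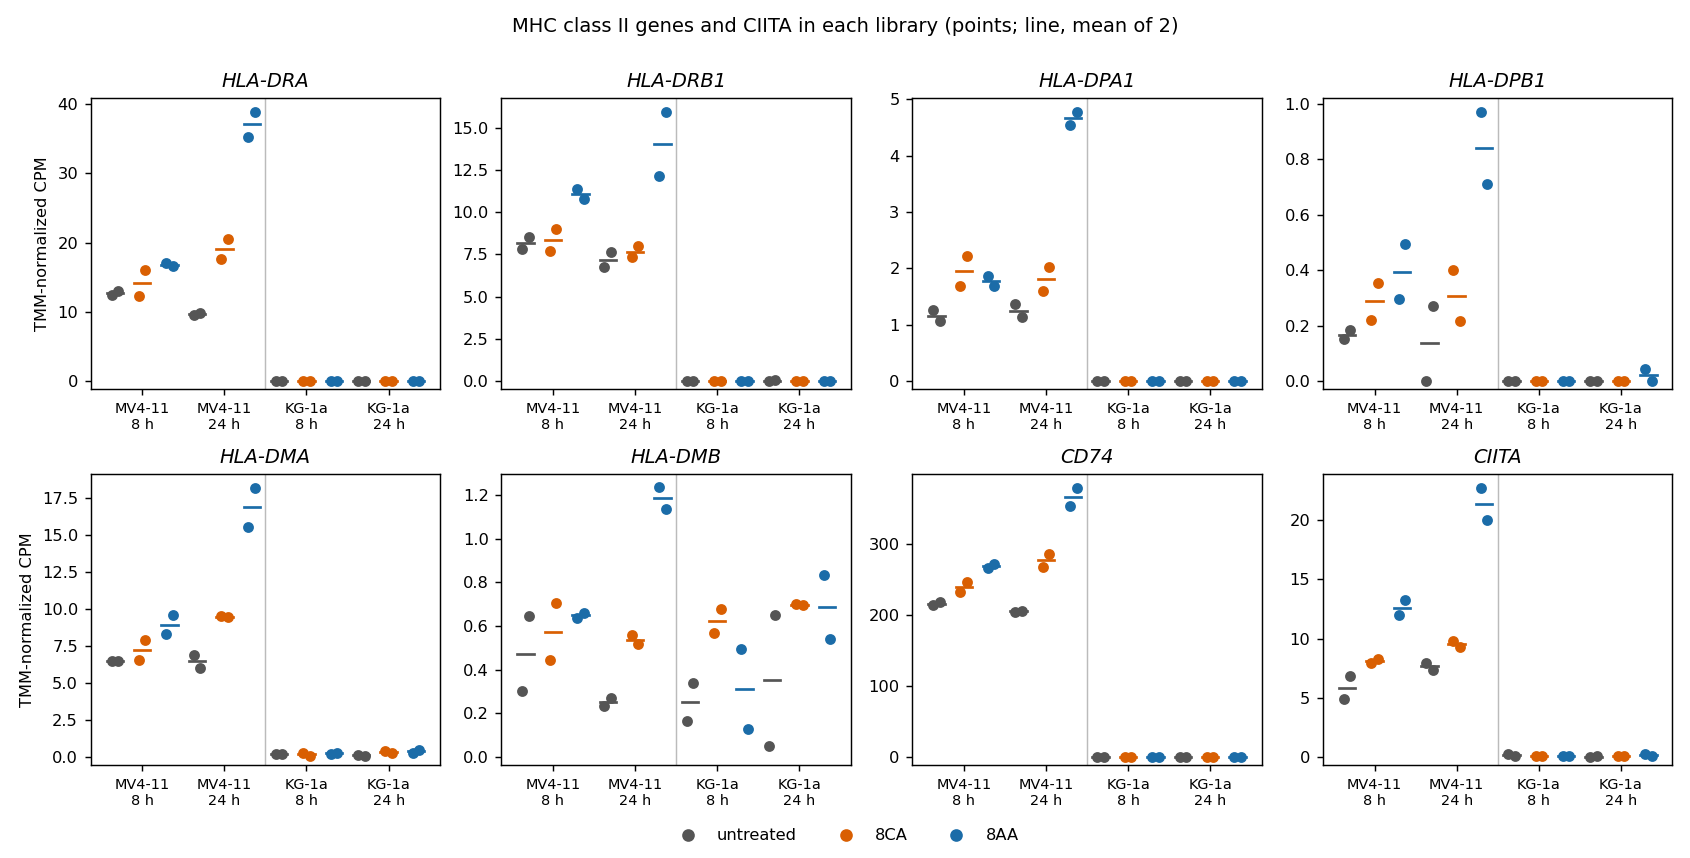
TMM-normalized CPM (y axis, linear, its own range in each panel) of each gene in each of the 24 libraries, by line and time on the x axis, with treatment in color, a point per library and a line at the mean of 2. The 8AA libraries at 24 h are the highest MV4-11 libraries in all 8 panels, CD74 at 353.5 and 379.5 CPM, while the KG-1a points lie on or near 0 except for HLA-DMB.

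Within MV4-11 the genes differed widely in level. Scaled to exon length, in CPM per kb, untreated cells at 24 h held CD74 at 122.8 ± 0.676 (SD, n = 2), HLA-DRA at 7.57 ± 0.236, HLA-DRB1 at 5.19 ± 0.452 and HLA-DMA at 3.70 ± 0.338. CIITA followed at 1.41 ± 0.0787 and HLA-DPA1 at 0.644 ± 0.0842, and HLA-DMB at 0.0543 ± 0.00559 and HLA-DPB1 at 0.0296 ± 0.0418 were the lowest. HLA-DMB and HLA-DPB1 did not differ beyond their spread, while the steps above them did. The order of the 8 was the same with 8CA and with 8AA at 24 h, although HLA-DRB1 and HLA-DMA then lay within their spread, at 5.53 ± 0.331 and 5.43 ± 0.0312 CPM per kb with 8CA and at 10.1 ± 1.96 and 9.67 ± 1.09 with 8AA.

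**Figure D2:**
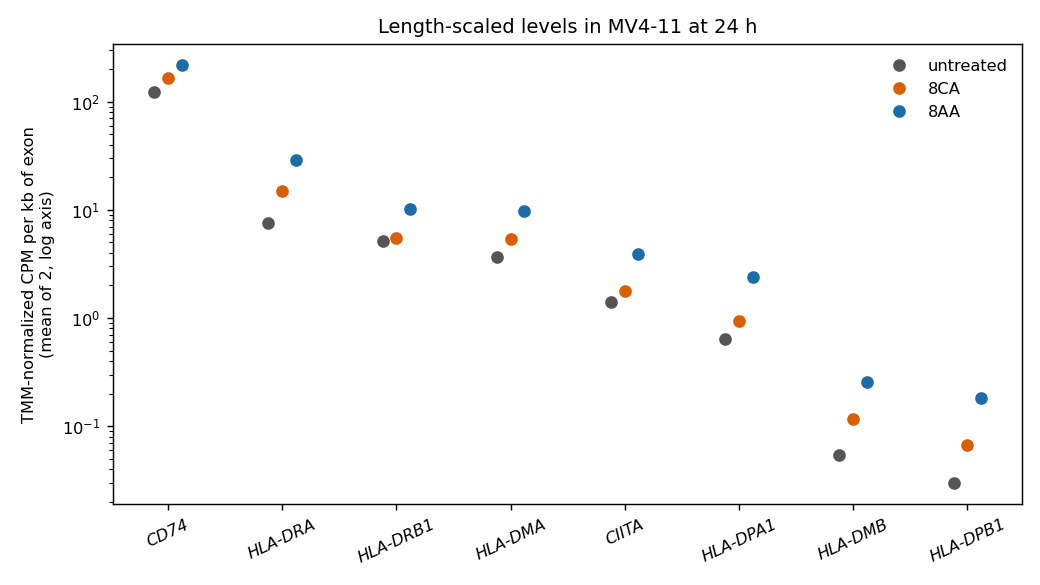
Mean TMM-normalized CPM per kb of exon in MV4-11 at 24 h (y axis, log scale; n = 2 libraries a point) for the 8 genes in the order of their untreated level. All 8 have their highest mean with 8AA, and CD74 lies far above the others, at 122.8 CPM per kb untreated and 219.2 with 8AA.

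In MV4-11 the 7 genes other than HLA-DPB1 rose after 24 h of 8AA, 8CA raised 3 of them at 24 h, and at 8 h 8AA had raised 5 and 8CA none that passed the test (3 at an unadjusted p under 0.05, namely CD74, CIITA and HLA-DPA1). All calls are from the edgeR quasi-likelihood test, Benjamini-Hochberg adjusted over 12800 genes. With 8AA at 24 h 13.9% of all genes were called higher and 15.3% lower; with 8CA at 24 h 21.2% and 22.7%; with 8AA at 8 h 13.6% and 15.6%; and with 8CA at 8 h 4.58% and 5.77%. None of the 8 was called lower in any of the 4 comparisons. The median log2 fold change of the 7 was 1.48 with 8AA and 0.54 with 8CA at 24 h, and 0.43 and 0.16 at 8 h, where the medians of all genes tested lay within 0.01 of 0. The comparisons of 8CA and 8AA share their untreated libraries. In bulk RNA more cells that express a gene and more RNA per cell cannot be told apart.

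HLA-DRA, the alpha chain of HLA-DR, was at 9.46 and 9.89 CPM in the untreated libraries A and B at 24 h. It was at 17.6 and 20.5 CPM with 8CA and at 35.2 and 38.9 CPM with 8AA. The 3 groups did not overlap. For 8CA the log2 fold change was 0.97 ± 0.12 (SE; adjusted p = 1.15e-05, edgeR), and for 8AA it was 1.94 ± 0.11 (adjusted p = 3.55e-08), a rise to 3.83 times the untreated level that stood at place 17 of 12800 genes. At 8 h HLA-DRA was at 12.39 and 13.02 CPM untreated, at 12.3 and 16.1 CPM with 8CA, and at 17.0 and 16.6 CPM with 8AA. Here 8CA overlapped the untreated libraries, at 0.15 ± 0.12 (adjusted p = 0.48), and 8AA did not, at 0.40 ± 0.12 (adjusted p = 0.0178).

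HLA-DRB1, the beta chain that pairs with HLA-DRA, changed less. At 24 h it was at 6.75 and 7.63 CPM untreated, at 7.34 and 7.99 CPM with 8CA, and at 12.1 and 16.0 CPM with 8AA. The 8CA libraries overlapped the untreated ones (0.09 ± 0.14, adjusted p = 0.645, edgeR), and 8AA lay above both (0.96 ± 0.13, adjusted p = 8.54e-05). At 8 h it was at 7.83 and 8.54 CPM untreated and at 11.4 and 10.8 CPM with 8AA (0.43 ± 0.14, adjusted p = 0.0261). The ratio of HLA-DRA to HLA-DRB1, in reads per kb within a library, was 1.46 ± 0.0819 (SD, n = 2) untreated at 24 h, 2.68 ± 0.131 with 8CA and 2.90 ± 0.36 with 8AA. At 8 h the same ratio was 1.68 ± 0.0452, 1.84 ± 0.143 and 1.65 ± 0.0325. HLA-DRB1 is the gene here whose reads may be shared with HLA-DRB5, so the ratio is uncertain in its level.

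The HLA-DP chains were low. HLA-DPA1, the alpha chain, had 29 and 25 counts untreated at 24 h. It had 40 and 47 counts with 8CA, and 8AA brought it to 103 and 101. In CPM these were 1.36 and 1.129, 1.60 and 2.03, and 4.55 and 4.78, with no overlap between the groups. The rise with 8AA was 1.90 ± 0.20 on the log2 scale (adjusted p = 9.47e-06, edgeR), and with 8CA the value was 0.54 ± 0.24 (adjusted p = 0.0803). HLA-DPB1, the beta chain, had 0 and 6 counts untreated at 24 h, against 10 and 5 in the 8CA libraries and 22 and 15 in the 8AA libraries, so that only 8AA lay above the untreated libraries. Since these 8AA libraries are what let the gene into the fit, its log2 fold change with 8AA is given as a description, at 2.57 ± 0.63 (adjusted p = 0.00656, edgeR). It missed the threshold without untreated A at 24 h, the library with 0 counts (1.62, adjusted p = 0.0613), and without 8AA A (2.31, adjusted p = 0.065). With 8CA, at 1.14 ± 0.78 (adjusted p = 0.255), it passed only without untreated B, which left the group at 0 counts (adjusted p = 0.022). At 8 h neither chain was called. HLA-DPA1 went from 25 and 23 counts untreated to 38 and 44 under 8CA (0.74 ± 0.25, adjusted p = 0.0688) and 38 and 41 under 8AA (0.62 ± 0.25, adjusted p = 0.0758), above both untreated libraries each time.

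HLA-DMA, the alpha chain of the peptide exchanger, was at 6.89 and 6.05 CPM untreated at 24 h, at 9.53 and 9.46 CPM with 8CA and at 15.6 and 18.2 CPM with 8AA. All 3 groups were apart, and both rises were called, at 0.55 ± 0.13 for 8CA (adjusted p = 0.00251, edgeR) and 1.38 ± 0.12 for 8AA (adjusted p = 1.93e-06). HLA-DMB, the beta chain, had 5 and 6 counts untreated at 24 h, 14 and 12 under 8CA and 28 and 24 under 8AA. The groups again did not overlap, but only the change with 8AA was called, at 2.21 ± 0.41 (adjusted p = 0.000813) against 1.07 ± 0.48 for 8CA (adjusted p = 0.0789). At 8 h HLA-DMA was at 6.47 CPM in both untreated libraries and at 8.30 and 9.57 CPM with 8AA, and was called at 0.47 ± 0.13 (adjusted p = 0.0137). HLA-DMB at 8 h overlapped between untreated (6 and 14 counts) and 8AA (13 and 16 counts) and was not called (0.43 ± 0.40, adjusted p = 0.453).

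CD74 was the most abundant of the genes and had the smallest standard errors. At 24 h it was at 204.5 and 206.1 CPM untreated, at 268.2 and 286.4 CPM with 8CA and at 353.5 and 379.5 CPM with 8AA. No group overlapped another, and the log2 fold changes were 0.43 ± 0.05 for 8CA (adjusted p = 4.83e-06, edgeR) and 0.84 ± 0.05 for 8AA (adjusted p = 3.55e-08). At 8 h it was at 213.7 and 217.9 CPM untreated, at 232.5 and 246.3 CPM with 8CA (0.15 ± 0.05, adjusted p = 0.0634) and at 266.7 and 272.1 CPM with 8AA (0.32 ± 0.05, adjusted p = 0.000162). The fold change of CD74 with 8AA at 24 h was the smallest of the 8 fitted. In reads per kb within a library CD74 stood at 16.2 ± 0.418 (SD, n = 2) times HLA-DRA untreated at 24 h, at 11.2 ± 0.695 times with 8CA and at 7.56 ± 0.155 times with 8AA. At 8 h it stood at 12.99 ± 0.281 times untreated, 13.1 ± 1.96 times with 8CA and 12.3 ± 0.388 times with 8AA.

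CIITA, the transactivator, was the gene of the 8 with the largest called rise at 8 h. It was at 4.87 and 6.83 CPM untreated at 8 h, at 7.94 and 8.30 CPM with 8CA and at 11.99 and 13.24 CPM with 8AA, with no overlap. The log2 fold change with 8AA was 1.10 ± 0.13 (adjusted p = 2.5e-05, edgeR), and with 8CA it was 0.46 ± 0.15 (adjusted p = 0.0543). At 24 h it was at 7.96 and 7.36 CPM untreated, at 9.81 and 9.33 CPM with 8CA and at 22.75 and 19.98 CPM with 8AA. The groups were again apart, at 0.32 ± 0.13 for 8CA (adjusted p = 0.0583) and 1.48 ± 0.12 for 8AA (adjusted p = 9.01e-07). Both 8CA values lay close to the threshold, and other scalings or filters put them past it, as given with the alternatives. CIITA is transcribed from several promoters, and the counts per gene do not separate them.

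**Figure D3:**
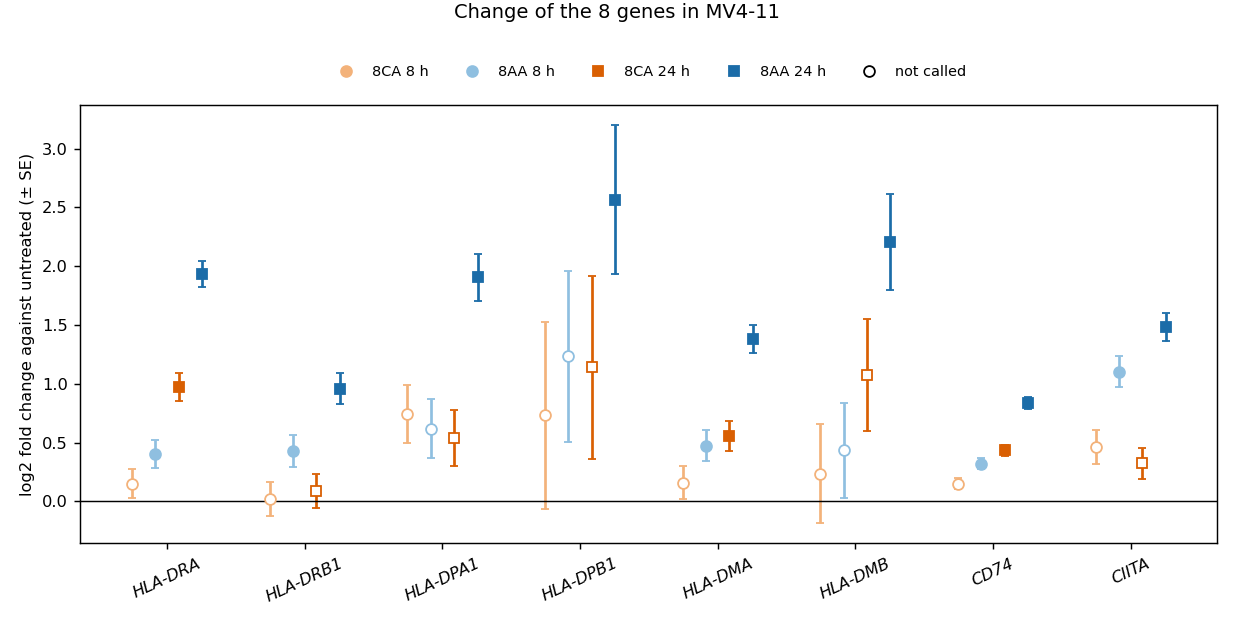
Log2 fold change against untreated cells of the same time in MV4-11 (y axis, ± SE from edgeR's fit), for each of the 8 genes on the x axis, with filled points called at an adjusted p below 0.05 and open points not called. The blue squares (8AA, 24 h) of the 7 genes other than HLA-DPB1 are filled and lie between 0.84 for CD74 and 2.21 for HLA-DMB, HLA-DPB1 (2.57) having entered the fit only through these libraries, whereas the orange circles (8CA, 8 h) are all open.

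Without regard to the model, both 8AA libraries lay above both untreated libraries for the 7 genes other than HLA-DPB1 at 24 h and 6 of them at 8 h, which held for 33.2% and 31.9% of all genes tested. Both 8CA libraries did so for 6 of the 7 at 24 h and 4 at 8 h, against 36.6% and 27.1% of all genes. Both 8AA libraries lay above both 8CA libraries for 7 at 24 h and 5 at 8 h, against 33.1% and 21.9%.

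The calls for 8AA at 8 h rested on all of the libraries. Of the 5 calls, 2 to 3 were left when any of the 4 libraries was left out, and CIITA and CD74 were the ones that never lost theirs. HLA-DRB1 lost its call without untreated A (adjusted p = 0.137, edgeR), untreated B (0.0567), 8AA A (0.0911) or 8AA B (0.0551). HLA-DRA lost it without untreated A (0.0938), untreated B (0.0535) or 8AA A (0.0576), and HLA-DMA without untreated A (0.0582), untreated B (0.0638) or 8AA B (0.131). At 24 h with 8AA the 7 genes other than HLA-DPB1 kept their calls without any 1 of the 4 libraries.

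Compared with each other at 24 h, 8AA exceeded 8CA in the 7 genes other than HLA-DPB1, where 11.7% of all genes were called higher with 8AA (the edgeR quasi-likelihood test, Benjamini-Hochberg adjusted over 12800 genes). The difference on the log2 scale was 1.37 ± 0.18 (SE) for HLA-DPA1 (adjusted p = 9.4e-05), 1.16 ± 0.11 for CIITA (4.08e-06), 0.96 ± 0.10 for HLA-DRA (7.81e-06) and 0.87 ± 0.13 for HLA-DRB1 (0.000245). It was 0.83 ± 0.11 for HLA-DMA (9.11e-05) and 0.40 ± 0.05 for CD74 (2.87e-05). HLA-DMB, at 1.132 ± 0.33 (adjusted p = 0.0248), lost its call when any of the 4 libraries was left out (adjusted p = 0.0821 without 8AA B, 0.116 without 8AA A, 0.116 without 8CA A and 0.108 without 8CA B). HLA-DPB1 was not called, at 1.43 ± 0.51 (adjusted p = 0.0599). At 8 h 2 of the 7 were called higher with 8AA, CIITA at 0.64 ± 0.13 (adjusted p = 0.00656) and CD74 at 0.17 ± 0.05 (adjusted p = 0.0465), where 2.96% of all genes were. The call for CD74 was lost without any of the 4 libraries (adjusted p = 0.229 without 8CA A, 0.0582 without 8CA B, 0.104 without 8AA A and 0.133 without 8AA B), and that for CIITA without 8CA A (0.0567) or 8AA B (0.0529). The other differences at 8 h lay between -0.13 ± 0.22 for HLA-DPA1 and 0.50 ± 0.64 for HLA-DPB1. The tests covered both times, so 16 differences between the analogs in these genes, adjusted over all genes at each time.

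The change against untreated cells was larger at 24 h than at 8 h for 4 of the same 7 genes with 8AA and 2 with 8CA, in a test of the difference between the times, where 2.51% and 6.48% of all genes were called in that direction. With 8AA the additional log2 change was 1.54 ± 0.16 for HLA-DRA (adjusted p = 0.000246, edgeR), 1.29 ± 0.33 for HLA-DPA1 (0.0397), 0.91 ± 0.18 for HLA-DMA (0.011) and 0.52 ± 0.07 for CD74 (0.00119). With 8CA it was 0.82 ± 0.17 for HLA-DRA (0.00409) and 0.28 ± 0.07 for CD74 (0.0104). CIITA gave 0.38 ± 0.18 with 8AA (0.271) and -0.14 ± 0.20 with 8CA (0.677), and neither was called. The call for HLA-DPA1 was lost without any 1 of the 8 libraries that enter it (adjusted p from 0.0599 to 0.163), and that for HLA-DMA without untreated B at 24 h (0.0694). In untreated cells none of the 8 was called between 24 h and 8 h, where 3.38% of all genes were called higher and 2.16% lower, and 2 of the 8 had an unadjusted p under 0.05. These were HLA-DRA at -0.39 ± 0.13 (adjusted p = 0.0857) and CIITA at 0.38 ± 0.15 (adjusted p = 0.144). The untreated level of HLA-DRA, against which each change was measured, was 9.68 ± 0.302 CPM (SD, n = 2) at 24 h and 12.7 ± 0.446 CPM at 8 h.

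In KG-1a only HLA-DMB could be tested, and it was not called in any of the 4 comparisons. It had 3 and 7 counts untreated at 8 h, 12 and 13 under 8CA and 11 and 3 under 8AA. At 24 h it had 1 and 12 counts untreated, 15 and 14 under 8CA and 20 and 11 under 8AA, with the untreated libraries far apart. The log2 fold changes at 24 h were 1.022 ± 0.65 for 8CA (adjusted p = 0.21, edgeR) and 1.03 ± 0.64 for 8AA (adjusted p = 0.191), and at 8 h 1.25 ± 0.71 (0.491) and 0.25 ± 0.81 (0.844). Without untreated B at 24 h both values at 24 h were called, at 3.64 (adjusted p = 0.0139 and 0.0111), so these rest on that library. Many other genes of KG-1a did change, with 23.4% called higher and 24.0% lower by 8CA at 24 h, 25.4% and 26.6% by 8AA at 24 h, 16.7% and 18.0% by 8AA at 8 h, and 0.700% and 0.181% by 8CA at 8 h. HLA-DMA, which passed the filter only when both lines were fitted together, gave 1.73 ± 0.70 with 8AA at 24 h in KG-1a (adjusted p = 0.0467, edgeR) from single-digit counts. It entered that fit through MV4-11, so this KG-1a value is a description. The difference in response between the lines, MV4-11 minus KG-1a in the fit of 24 libraries, was not called for HLA-DMB, the only gene to pass the filter of each line, at 1.20 ± 0.84 for 8AA at 24 h (adjusted p = 0.357, edgeR). HLA-DMA and CIITA had 1 to 9 and 0 to 5 counts a library in KG-1a. Both entered this fit through MV4-11, so their values are a description. For 8AA at 24 h the difference was -0.33 ± 0.68 for HLA-DMA and -0.63 ± 1.11 for CIITA. With 8AA at 8 h it was 2.05 ± 1.07 for CIITA. None of these was called, and with errors this wide that cannot show that the lines respond alike. For the genes with 0 or 1 count in KG-1a no difference is given.

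The wider list of class II pathway genes holds 42 genes in the table, and the MV4-11 fit covered 33 of them, the KG-1a fit 29. In MV4-11 9 rose and 3 fell with 8AA at 24 h, 10 rose and 3 fell with 8CA at 24 h, 11 rose and 1 fell with 8AA at 8 h, and 3 rose and 0 fell with 8CA at 8 h, at median log2 fold changes of 0.05, 0.12, 0.11 and 0.06. In KG-1a the counts were 10 and 4, 8 and 4, 5 and 5, and 0 and 0. The background percentages of the same comparisons are those given above.

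HLA-DQB1 was the only tested class II chain outside the 8 that was called higher in MV4-11 at 24 h. In MV4-11 it was at 4.03 and 4.33 CPM untreated at 24 h, at 5.90 and 6.87 CPM with 8CA and at 10.03 and 11.98 CPM with 8AA, with no overlap. Against untreated cells 8CA gave a log2 fold change of 0.61 ± 0.17 (adjusted p = 0.0108, edgeR) and 8AA gave 1.39 ± 0.16 (adjusted p = 2.04e-05). In KG-1a it had 0 counts in all 12 libraries. HLA-DRB5 passed the filter only with the 8AA libraries, so its values are a description, though it is among the 33 pathway genes fitted in MV4-11. It was at 1.37 ± 0.51 with 8AA at 24 h and was not called (adjusted p = 0.0524, edgeR). HLA-DQA1, the partner of HLA-DQB1, was too low to be tested in either line. HLA-DOB was tested in both lines, was not called against untreated cells, and did not rise with 8AA in MV4-11. There it had 40 and 37 counts untreated and 30 and 27 with 8AA at 8 h, and 38 and 33 against 35 and 25 at 24 h. In KG-1a it had between 17 and 29 counts in a library.

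Among the proteins of the X and Y boxes, RFX5, a subunit of the RFX complex, rose in MV4-11 by 0.30 ± 0.05 with 8AA at 24 h (adjusted p = 0.0002, edgeR), by 0.32 ± 0.05 with 8AA at 8 h (9.31e-05) and by 0.13 ± 0.05 with 8CA at 24 h (0.0275). The other RFX subunits were not called there, with RFXAP at 0.23 ± 0.11 (0.128) and RFXANK at 0.13 ± 0.06 (0.114) for 8AA at 24 h. RFX5 also rose in KG-1a with 8AA, by 0.23 ± 0.05 at 24 h (0.0014) and 0.25 ± 0.05 at 8 h (0.00167). The part of RFX5 in the changes of the class II genes was not tested.

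Of the 10 listed genes upstream of CIITA, 5 were called higher in MV4-11 with 8AA at 8 h and 4 at 24 h. Of all genes 13.6% and 13.9% were. With 8CA 1 was called higher at 8 h (4.58% of all), and 3 higher and 1 lower at 24 h (21.2% and 22.7%). These counts do not consider in which direction each of the 10 acts on CIITA. PRDM1 is 1 of them. Its mean CPM in MV4-11 was 11.89 untreated, 17.36 with 8CA and 21.98 with 8AA at 8 h, and 10.35, 13.72 and 14.86 at 24 h. Among the 10, IRF1, an interferon-induced transcription factor, was at 0.14 ± 0.07 with 8AA at 24 h in MV4-11 (adjusted p = 0.132, edgeR). IRF8 was at -0.02 ± 0.04 (0.699) and SPI1, the myeloid factor PU.1, at -0.09 ± 0.05 (0.237). SPI1 fell by 0.18 with 8CA at 24 h (adjusted p = 0.0105). IRF4, a factor of activated lymphoid and dendritic cells, rose in MV4-11 with 8AA at 24 h (0.58 ± 0.07, 3.97e-05) and 8 h (0.48 ± 0.08, 0.000429) and with 8CA at 24 h (0.25 ± 0.08, 0.0127). In KG-1a IRF4 had 3 and 5 counts untreated at 24 h and 13 and 11 with 8AA, the libraries that alone let it pass the filter there, so no test is given, and it is 1 of the 10 pathway genes counted as risen in that comparison. CD86, a costimulatory ligand, rose in MV4-11 with 8AA at 8 h (1.30 ± 0.37, 0.0156) from 6 and 12 to 19 and 29 counts, and was not called at 24 h (0.68 ± 0.33, 0.134).

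**Figure D4:**
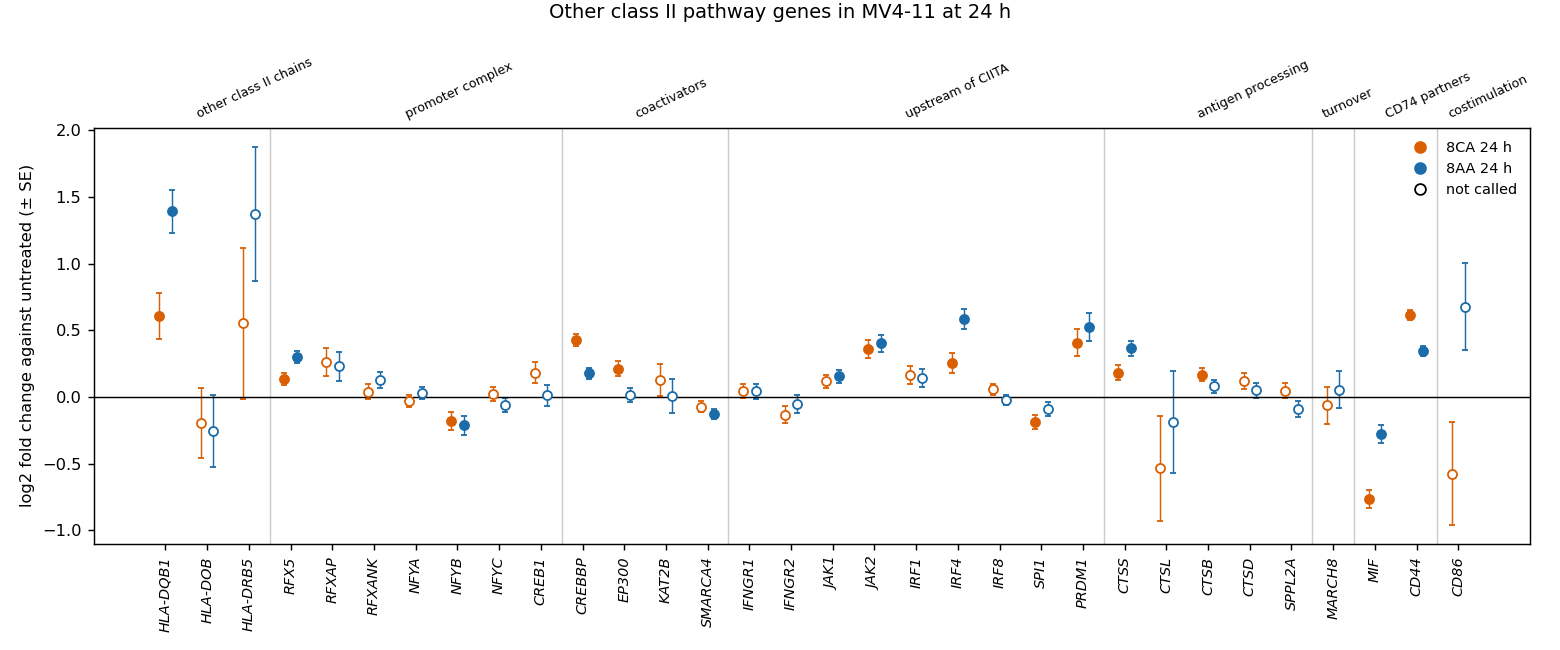
Log2 fold change against untreated cells in MV4-11 at 24 h (y axis, ± SE from edgeR's fit) of tested genes of the wider pathway list, grouped by role along the x axis, with 8CA in orange and 8AA in blue and filled points called. Most lie near 0. HLA-DQB1 lies at 0.61 with 8CA and 1.39 with 8AA, both filled. HLA-DRB5 lies close to it, at 0.55 and 1.37, both open, having entered the fit only with the 8AA libraries.

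Markers of other cells that carry class II were examined in the same MV4-11 libraries. MS4A1 of B cells and CD3D and CD3E of T cells had 0 counts in all 12 libraries, and the 4 B cell markers summed to 0.796 to 1.45 CPM untreated and 1.016 to 2.08 CPM with 8AA at 24 h. Of the 3 dendritic cell markers, CD1C and CLEC9A had at most 1 count, and the sum, which is nearly all FCER1A, was 2.53 to 2.66 CPM untreated and 2.87 to 3.36 CPM with 8AA at 24 h. The 5 monocyte markers summed to 2963 to 3202 CPM untreated, 2617 to 2630 CPM with 8CA and 2818 to 2921 CPM with 8AA at 24 h. This sum is nearly all LYZ, and CD14 had at most 5 counts. The others did not move alike with 8AA at 24 h. Mean CPM was higher than untreated for CSF1R (56.4 against 47.7) and ITGAM (3.65 against 2.18). It was lower for FCGR1A (17.8 against 22.6) and LYZ (2792 against 3010). With 8CA the means of these 4 were 39.2, 1.99, 18.9 and 2564, all below untreated. The 7 AML markers summed to 699.2 to 709.7 CPM untreated at 24 h, 830.0 to 852.1 CPM with 8CA and 807.7 to 826.3 CPM with 8AA, so this sum moved with both drugs, and its part in the results was not tested. Most of it is FLT3, at mean CPM of 484.4 untreated, 591.6 with 8CA and 567.8 with 8AA. The means of CD33, KIT, HOXA9 and MEIS1 were also higher with both drugs. MPO was lower, at 7.93 with 8CA and 11.2 with 8AA against 12.4, and CD34 was near 0.

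Over the 12 MV4-11 libraries the log2 levels of the 7 genes other than HLA-DPB1 moved together, with pairwise Pearson r from 0.805 (HLA-DRB1 and HLA-DPA1) to 0.985 (HLA-DRA and CD74). These points share treatments and libraries, so the values are a description. Among 9455 other genes at an average of at least 3 on the log2 CPM scale, those most like HLA-DRA were SERPINF1 (r = 0.957), UBA7 (0.95) and PDE4DIP (0.949). The same 3 were most like CD74, at 0.981, 0.976 and 0.972. CIITA was nearest to PLB1 (0.966), ANO8 (0.958) and ZFHX2 (0.956).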

How the data were processed

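Per the submitters' processing notes, reads were handled with Trimmomatic, STAR 2.6.0, HTSeq 0.11.1 and edgeR, and the builds hg19 and hg38 are named without a role. Annotation and strand use were not given in the sources used here. The authors deposited raw counts per gene, and titles matched all 24 columns to their libraries. The members and lists were chosen with earlier results of these data known. Each line was fitted with its 12 libraries by the quasi-likelihood test of edgeR 4.0.16 in R 4.3.3, after a filterByExpr filter with a minimum count of 10 and TMM scaling. P-values were Benjamini-Hochberg adjusted across the genes of a fit, and calls were made at an adjusted p below 0.05. Baseline and response contrasts between lines used all 24 libraries. The code was tested on simulated data. CPM are TMM-normalized within a line. Counting intervals (exact) cover counting error only, and the floor of 3 counts covers only that of KG-1a. Genes outside the members were named if they belong to a fixed core of the pathway list or were called at 1 or more log2 units of change in a drug comparison, and a few others of the list or the markers are given as counts or CPM. A gene of the fixed core is not reported here. The 3 most similar genes were taken by Pearson r on log2(CPM + 0.5). Alternatives were DESeq2 1.42.0 and its size factors, other scalings and filters, a replicate block, other sets of libraries in the fit, a fold threshold, and leaving out each library.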

Additional observations from a re-analysis of the deposited data

Results flagged for a closer look

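For 6 changes in MV4-11 the effect of a drug at 24 h differed from its effect at 8 h in a test of the difference itself (the edgeR quasi-likelihood test, Benjamini-Hochberg adjusted over 12800 genes). With 8AA, the 24 h change exceeded the 8 h change by 1.54 on the log2 scale for HLA-DRA (adjusted p = 0.000246), 1.29 for HLA-DPA1 (0.0397), 0.91 for HLA-DMA (0.011) and 0.52 for CD74 (0.00119). With 8CA, it did so by 0.82 for HLA-DRA (0.00409) and 0.28 for CD74 (0.0104). The groups hold 2 libraries each, so single libraries far from the rest of their group were not looked for.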

How the results depend on the processing

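With 2 libraries a group and counts below 30 for HLA-DPB1 and HLA-DMB, changes in those genes are known with wide errors, and 7 of the 8 genes were too low to pass the filter in the KG-1a fit. The counts of calls below include HLA-DPB1, which passed the filter only through its 8AA libraries at 24 h in MV4-11. Calls of the 8 genes for 8CA at 8 h in MV4-11 (0 with edgeR, 0 with DESeq2) became 2 with library size only, upper quartile scaling, the replicate block or no filter of low counts (CD74 and CIITA), and 1 with all 24 libraries in the fit (CIITA, adjusted p = 0.0463, edgeR). For untreated 24 h against 8 h, 0 became 1 (HLA-DRA) with no filter (adjusted p = 0.00759) and with the replicate block (0.0251). For 8AA at 24 h in KG-1a, 0 became 1 with all 24 libraries in the fit (HLA-DMA, which entered that fit through MV4-11). Requiring also 1 or more log2 units of change left 1 call (CIITA) of 5 for 8AA at 8 h and 0 of 3 for 8CA at 24 h in MV4-11. CIITA with 8CA at 24 h passed the threshold with library size only (0.0359), upper quartile (0.0398), no filter (0.0166), at least 10 counts in every library (0.0492), all 24 libraries (0.0477) and only the 4 libraries compared (0.0227). HLA-DRB1 with 8AA at 8 h lost its call with DESeq2 (0.0704), and HLA-DMB between 8AA and 8CA at 24 h with all 24 libraries (0.0704). HLA-DPB1 in that comparison was called with no filter (0.0438) and the replicate block (0.0494). DESeq2 gave no adjusted p to HLA-DPB1 and HLA-DMB in the MV4-11 24 h comparisons of 8AA, and called the other 6 genes against untreated and against 8CA. The cause was not tested in any of these.

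Leaving out a library gave 7 to 8 calls for 8AA at 24 h in MV4-11 (HLA-DPB1 being the one lost), 2 to 3 for 8AA at 8 h, 3 to 4 for 8CA at 24 h, 0 to 1 for 8CA at 8 h, 6 for 8AA against 8CA at 24 h and 0 to 1 at 8 h, 2 to 3 for the additional change with 8AA and 2 with 8CA, 6 to 7 between untreated lines at either time, and 0 to 1 for each drug at 24 h in KG-1a and for the line difference with 8AA at 24 h. Uncalled values at 8 h that changed sign ranged from -0.058 to 0.33 for HLA-DRA, -0.10 to 0.12 for HLA-DRB1 and -0.20 to 0.89 for HLA-DMB with 8CA in MV4-11, and from -0.96 to 0.92 for HLA-DMB with 8AA in KG-1a. HLA-DPB1 between untreated lines at 24 h ranged from 0 to 5.61.

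The library letters pair no samples by the labels. Differences of A and B correlated between groups of a line at -0.379 to 0.612. Every negative value involved the untreated 24 h libraries, the baseline of the 24 h changes. These values were -0.379 to -0.052 in MV4-11 and -0.306 to -0.106 in KG-1a, and all other pairs were positive, from 0.073 to 0.612. What sets these untreated libraries apart was not tested. The replicate block changed no other call than those given. With the letters of the untreated 24 h libraries crossed, a choice made after seeing the data, 1 gene was called between untreated times. With library size only, 2458 genes were higher and 1394 lower for 8AA at 24 h in MV4-11, against 1773 and 1953 with TMM, and the calls of the other 7 genes stayed 7.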
